A study of Mus musculus with 6 samples.

Results

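Transcripts of the LIF, JAK and STAT3 self-renewal pathway were measured in mouse embryonic stem cells that were wild type or lacked 3 linker histone genes. The set holds 10 genes named from the pathway, and its members are the probe sets whose platform annotation gives 1 of these symbols. Of the 12488 probe sets on each array, 19 matched, for 9 of the 10 genes. Lif itself was not analysed here. The 3 lines are wild type, null line 1 and null line 2, and both null lines lack H1c, H1d and H1e (now H1f2, H1f3 and H1f4). A line has 2 arrays, labelled experiment 1 and experiment 2. RNA came from cells in exponential growth. The strain, the culture medium, the use of feeder cells and whether a null line is a single clone are not given in the sources used here. Because the labels do not tie arrays to separate cultures, p-values measure the spread between arrays, which may be technical.

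Leukaemia inhibitory factor (LIF) keeps mouse embryonic stem cells undifferentiated in culture. It binds the LIF receptor, which pairs with gp130, the product of Il6st, and the JAK kinases held on the receptor tails then phosphorylate STAT3. STAT3 moves into the nucleus and switches on target genes, among them Socs3, whose protein shuts the receptor complex off again, and the survival kinases Pim1 and Pim2. The phosphatase SHP2, the product of Ptpn11, docks on gp130 and links the same receptor to the MAPK cascade, which favours differentiation.

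Socs3, Pim1 and Pim2 are the STAT3 targets among the members, and their promoter windows are shown because Pim1 and Pim2 had the largest differences of the set and Socs3 held the STAT motif. Each window runs from 250 bases before to 50 bases after a transcript start in RefSeq, GRCm38.p6, on the strand of the gene. Capitals mark the core of a STAT binding motif, TTCNNNGAA, which reads the same on both strands.
Socs3, chr11:117969317-117969616, minus strand: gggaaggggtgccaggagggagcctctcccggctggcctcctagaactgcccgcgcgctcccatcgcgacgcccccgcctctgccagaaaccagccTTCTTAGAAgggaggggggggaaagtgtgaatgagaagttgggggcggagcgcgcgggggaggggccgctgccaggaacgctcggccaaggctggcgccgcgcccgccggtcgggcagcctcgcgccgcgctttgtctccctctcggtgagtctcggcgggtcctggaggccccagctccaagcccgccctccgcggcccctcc
Pim1, chr17:29490535-29490834, plus strand: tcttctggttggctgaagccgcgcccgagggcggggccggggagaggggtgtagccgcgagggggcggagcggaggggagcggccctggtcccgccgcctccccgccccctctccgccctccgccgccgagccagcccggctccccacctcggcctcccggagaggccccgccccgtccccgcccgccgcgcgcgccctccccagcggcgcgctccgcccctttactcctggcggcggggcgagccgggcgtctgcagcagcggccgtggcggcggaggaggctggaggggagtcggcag
Pim2, chrX:7878056-7878355, plus strand: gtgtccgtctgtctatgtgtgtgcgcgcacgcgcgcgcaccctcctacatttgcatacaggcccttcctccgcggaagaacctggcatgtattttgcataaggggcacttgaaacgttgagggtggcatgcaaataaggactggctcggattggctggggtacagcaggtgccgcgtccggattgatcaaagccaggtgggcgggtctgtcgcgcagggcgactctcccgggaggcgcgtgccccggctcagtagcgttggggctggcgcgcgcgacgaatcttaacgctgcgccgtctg
The Socs3 window held 1 match, TTCTTAGAA, whose first base lies 154 bases before the start. No other of the 12 windows listed for the 10 genes held the letters, and the narrower TTCCNGGAA, whose matches also count under the first motif, was in none. Over all 32851 windows of this length in the table, 8.3% held TTCNNNGAA and 1.15% held TTCCNGGAA. The printed windows held 31 CpG dinucleotides for Socs3, 42 for Pim1 and 31 for Pim2, against a median of 7 over all windows. A second Pim1 window, at chr17:29492835-29493134, held 5 and is not printed. A match is a run of letters and says nothing of binding in these cells.

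The values are array signals in intensity units, scaled by the authors to a common level, with a median per array between 34.1 and 39.5. The highest of 19 bacterial and yeast control probe sets, taken as background, lay between 9.1 and 17.2. H1f2, the targeted gene whose probe set was above background in wild-type cells, measured 68.2 and 70 there and between 11.1 and 14.4 on the null arrays, whereas the probe sets of H1f3 and H1f4 were at background on every array and check nothing. The embryonic stem cell genes Pou5f1, Nanog and Sox2 were bright. Their means in wild-type and null cells were 1532 and 1666, 1333 and 1252, and 1410 and 1380. Other markers of these cells were dimmer, among them Zfp42 (71.6 and 86.4) and Esrrb (35.45 and 44.85). Klf2 was at background on both wild-type arrays (5 and 7). It measured 27.7 and 5.5 in null line 1 and 25.5 and 5.8 in null line 2, with 1 array of each line above background. Tests were run with limma on log2(signal + 2), over the 7453 probe sets whose mean reached 20.9 intensity units, with Benjamini-Hochberg adjusted p-values and a threshold of 0.05. Fold changes on this scale understate those of dim genes.

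No member passed in any of the 4 comparisons. Of the 19 probe sets, 12 reached the signal filter and were tested, for 8 genes, and 7 did not. In the average of the null lines against wild type, 0 of the 12 had a limma adjusted p at or under 0.05, against 0.416% of all probe sets tested, and 3 (Jak1 and both probe sets of Pim1) had an unadjusted p under 0.05, against 12.7%. Null and wild-type arrays did not overlap for 6 of the 12, 4 of them lower and 2 higher in the null cells. Over all probe sets tested, 23% did not overlap, 12% lower and 11% higher. Several members have 2 probe sets for the same transcript, so the 12 are not separate genes. Their median log2 difference was -0.046, and that of all probe sets tested was -0.015.

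**Figure D1:**
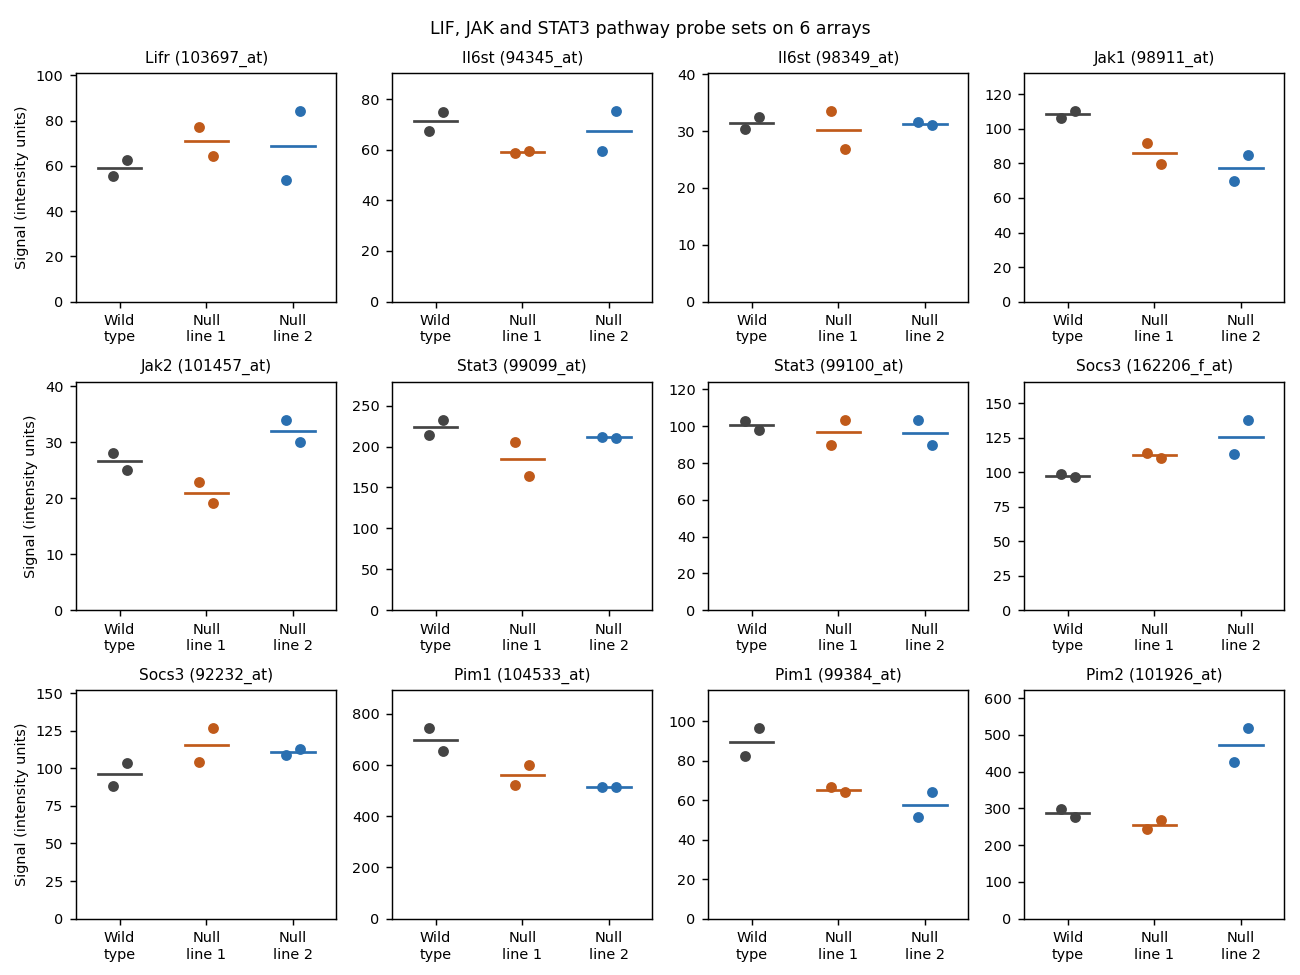
Signal in intensity units of the 12 tested probe sets on the 6 arrays, by line; points are single arrays and bars are means of 2 arrays, with each vertical axis starting at 0. Both Pim1 probe sets and Jak1 lay lower on all 4 null arrays than on both wild-type arrays, both Socs3 probe sets lay higher, and Pim2 was high in null line 2, at 424.7 and 517.5.

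Neither receptor gene passed in any of the 4 comparisons. Lifr encodes the subunit that binds LIF. Its brightest probe set, 103697_at, measured 55.4 and 62.5 in wild-type cells, 77.3 and 64.5 in null line 1, and 53.7 and 84.1 in null line 2. Null and wild-type arrays overlapped, although both arrays of line 1 lay above both wild-type arrays. The 2 arrays of null line 2 spanned the values of all the others. The log2 difference of the null average was 0.22 ± 0.20 (SE; limma adjusted p = 0.688), with a 95% interval from -0.26 to 0.71. The remaining 4 probe sets of Lifr lay below the filter, at means between 6.02 and 16 over all arrays, at or near background. Il6st encodes gp130, the signalling subunit shared by the cytokines of the interleukin-6 family. Its brighter probe set, 94345_at, measured 67.6 and 75 in wild-type cells, 58.9 and 59.5 in line 1, and 59.5 and 75.2 in line 2, so that 3 of the 4 null arrays lay below both wild-type arrays and the fourth was level with the higher of them. Its other probe set, 98349_at, stayed between 26.9 and 33.5 on all 6 arrays. The log2 differences of the null average were -0.17 ± 0.13 and -0.034 ± 0.13 (SE; limma adjusted p = 0.633 and 0.946). Their 95% intervals ran from -0.50 to 0.15 and from -0.34 to 0.27, and the second difference turned sign with quantile normalization.

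Of the 2 kinases, neither of which passed, Jak1 lay lower on all null arrays and Jak2 lay on opposite sides of wild type in the null lines. Jak1, the kinase that gp130 signalling chiefly relies on, measured 106.6 and 110.2 in wild-type cells, 92.1 and 79.7 in line 1, and 69.6 and 84.8 in line 2. All 4 null arrays were below both wild-type arrays. Its mean was 108 ± 2.55 (SD, n = 2) in wild-type and 81.6 ± 9.45 (SD, n = 4) in null cells, a log2 difference of -0.41 ± 0.13 (SE; 95% interval -0.73 to -0.088), which did not pass (limma adjusted p = 0.297). The difference was -0.40 within experiment 1 and -0.41 within experiment 2. By line the values were less even, at -0.21 and -0.46 in line 1 and -0.60 and -0.37 in line 2. Here and below, where groups do not overlap, that alone fixes the sign of the difference within each experiment. Equal signs in both experiments are then no further support. Jak2 measured 28.1 and 25.1 in wild-type cells, 22.9 and 19.1 in line 1, and 34 and 30.1 in line 2 (101457_at). The lines did not overlap: line 1 was lowest, wild type in the middle and line 2 highest. Line 1 minus line 2 gave a log2 difference of -0.57 ± 0.15 (SE; limma adjusted p = 0.618), -0.53 in experiment 1 and -0.61 in experiment 2, while the null average differed from wild type by -0.033, a value that turned sign with quantile normalization. These signals are not far above the highest background controls. The second Jak2 probe set, 96488_at, was at background on every array, between 1.1 and 3.3.

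Stat3, the transcription factor that carries the signal, was measured by 2 probe sets. The brighter, 99099_at, gave 214.4 and 232.6 in wild-type cells, 205 and 163.7 in line 1, and 211.6 and 210.6 in line 2. All 4 null arrays lay below the wild-type arrays, yet the highest of them, 211.6, was nearer to the lower wild-type array than that array was to the other. The other, 99100_at, gave 103.1 and 97.9, then 89.8 and 103.5, then 103.3 and 89.8, with the groups overlapping. The log2 differences were -0.18 ± 0.13 and -0.059 ± 0.12 (SE; limma adjusted p = 0.612 and 0.883). The 95% intervals ran from -0.50 to 0.14 and from -0.36 to 0.24. Ptpn11 was represented by 1 probe set, which lay below the filter, at 7.5 and 3.4 in wild-type cells and between 8.8 and 13.6 in null cells. Both wild-type arrays were at background and 2 of the 4 null arrays, 1 of each line, were above it, so no fold is given.

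Among the STAT3 targets, Socs3 was higher and Pim1 lower on the null arrays. Socs3 measured 88.2 and 103.7 in wild-type cells, 103.9 and 126.5 in line 1, and 108.5 and 112.8 in line 2 with probe set 92232_at. With 162206_f_at, a type of probe set that can share sequence with related transcripts, it measured 98.3 and 96.8, then 114.1 and 110.4, then 113.5 and 137.9. All 4 null arrays were above both wild-type arrays with either probe set, although for 92232_at the lowest null array, at 103.9, was level with the higher wild-type array. The log2 differences were 0.23 ± 0.14 and 0.28 ± 0.12 (SE), neither of which passed (limma adjusted p = 0.526 and 0.423). Within experiments 1 and 2 they were 0.26 and 0.20 for the first probe set and 0.21 and 0.34 for the second.

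Pim1, a serine/threonine kinase that promotes survival, showed the largest negative difference of the set in the null average. With probe set 99384_at it measured 82.1 and 96.3 in wild-type cells, 66.4 and 64.3 in line 1, and 51.5 and 63.9 in line 2. With 104533_at it measured 743.1 and 655.2, then 520.3 and 598.8, then 515.8 and 514.5. The null arrays lay below both wild-type arrays with both probe sets, and in both line 2 lay below line 1. The means were 89.2 ± 10 (SD, n = 2) and 61.5 ± 6.77 (SD, n = 4) for the first, and 699 ± 62.2 and 537 ± 41 for the second. The log2 differences were -0.52 ± 0.14 and -0.38 ± 0.12 (SE; 95% intervals -0.86 to -0.19 and -0.67 to -0.085), or 1.44-fold and 1.3-fold lower. By p they stood at ranks 283 and 498 among the 7453 probe sets, short of the threshold (limma adjusted p = 0.219 and 0.292). Within experiment 1 they were -0.48 and -0.52, and within experiment 2 -0.57 and -0.24.

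Pim2, a close relative of Pim1 encoded on the X chromosome, separated the null lines from each other. It measured 298.6 and 276 in wild-type cells, 242.6 and 268.8 in line 1, and 424.7 and 517.5 in line 2 (101926_at). Line 1 was below both wild-type arrays and line 2 well above them. Line 2 exceeded wild type by 0.70 ± 0.15 on the log2 scale (SE; 95% interval 0.34 to 1.07; limma adjusted p = 0.153), whereas line 1 differed by -0.17 ± 0.15 (limma adjusted p = 0.76). Line 1 minus line 2 was -0.87 ± 0.15 (95% interval -1.24 to -0.50), a 1.83-fold difference and rank 15 by p among the 7453 probe sets, with -0.80 in experiment 1 and -0.94 in experiment 2. The adjusted p was 0.454. An average over both null lines (0.27, limma adjusted p = 0.455) lies between lines on opposite sides of wild type. The second probe set of Pim2, 161233_at, was below the filter, at 3 to 20.7.

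The comparisons of single lines share the wild-type arrays. In line 1, 0 of the 12 member probe sets passed against wild type (0.134% of all probe sets), 1 had an unadjusted p under 0.05 (9.49%), and 10 did not overlap with wild type (39.5%). In line 2, 0 passed (0.255% of all), 5 had an unadjusted p under 0.05 (14.1%), and 8 did not overlap (48.8%). Between the null lines, 0 passed (0.0268% of all), 2 (Jak2 and Pim2) had an unadjusted p under 0.05 (7.55%), and 5 did not overlap (39.1%). The p-values are from limma, and all shares are over the same 7453 probe sets. The values of the members that did not overlap with wild type in the null average are given here by line, where the choice of such members fixes that both lines have the same sign. Jak1 differed from wild type by -0.33 in line 1 and -0.49 in line 2 (limma adjusted p = 0.549 and 0.262), and Pim1 by -0.43 and -0.61 with 99384_at (0.476 and 0.201) and by -0.32 and -0.44 with 104533_at (0.535 and 0.268). Socs3 differed by 0.20 and 0.35 with 162206_f_at and by 0.26 and 0.21 with 92232_at. Stat3 (99099_at) differed by -0.28 and -0.080. Between the null lines the 6 probe sets differed by -0.20 (Stat3) to 0.18 (Pim1, 99384_at), with every 95% interval across 0.

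**Figure D2:**
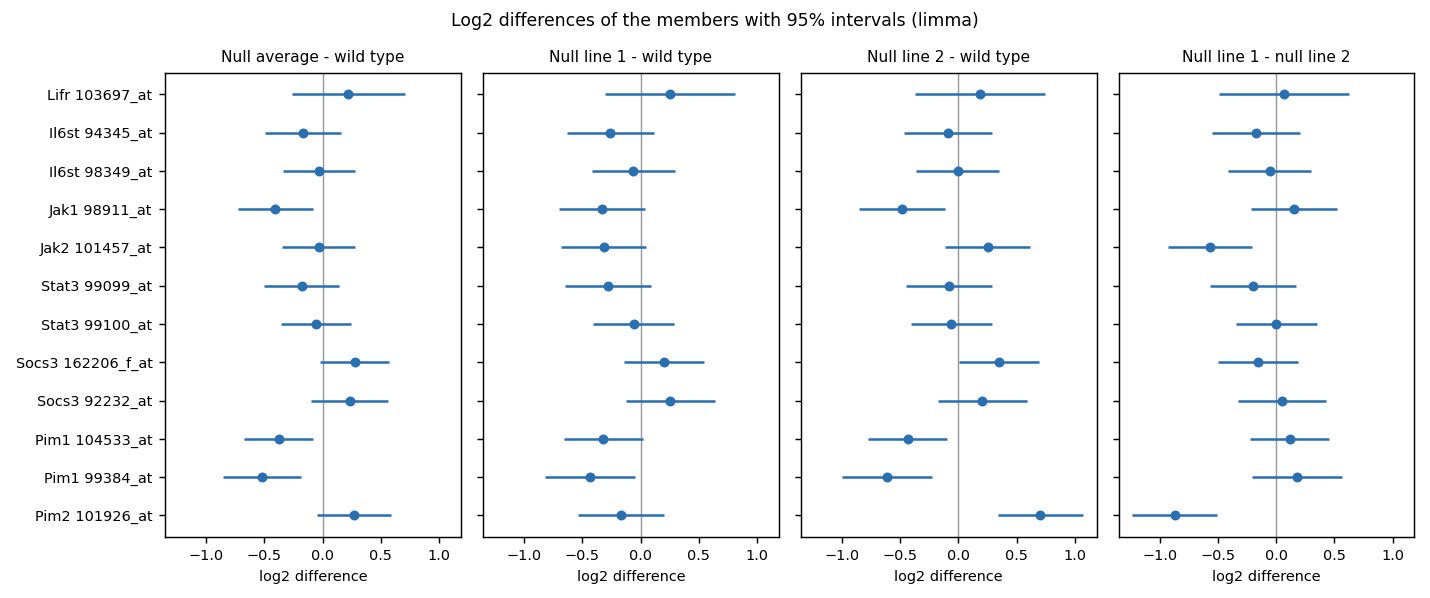
Log2 differences of the 12 tested probe sets (points) with 95% intervals from limma (lines) in the 4 comparisons; 0 means no difference. In the null average the intervals of Jak1 and of both Pim1 probe sets lie below 0, and between the null lines those of Jak2 and Pim2 do, before any adjustment for the number of probe sets tested.

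Further genes of the pathway were described in 7 lists by role, 73 genes in all, of which 53 were on the array and 45 were tested. None of the 45 passed limma in any of the 4 comparisons. In the null average 3 had an unadjusted p under 0.05, a smaller share than the 12.7% of all probe sets, and 19 had positive and 26 negative differences with a median of -0.021, against -0.015 for all probe sets tested. Gab1, an adaptor that joins SHP2 and Grb2 at activated receptors, had the smallest p. It measured 287 and 270.3 in wild-type cells, 457 and 513.1 in line 1, and 370.4 and 405.1 in line 2. Every null array was above both wild-type arrays, by a log2 difference of 0.63 ± 0.12 (SE; 95% interval 0.35 to 0.91; limma adjusted p = 0.121), and the difference was 0.52 in experiment 1 and 0.75 in experiment 2. Its dimmer probe set, 93902_at, had means of 112 and 144 (0.35, adjusted p = 0.412). The other named genes of the MAPK arm were the exchange factor Sos2 (-0.26), the kinase Araf (-0.24) and Dusp6 (-0.17), a phosphatase that inactivates ERK, with limma adjusted p between 0.47 and 0.62. The 10 genes tested in that arm had a median of -0.042.

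Of 13 STAT3 target genes tested besides the members, 4 had positive and 9 negative differences, with a median of -0.053. Bcl2l1, which encodes the survival protein BCL-XL, measured 244.6 and 270.3 in wild-type cells, 195.9 and 224.1 in line 1, and 180.9 and 178.6 in line 2. All null arrays were lower, with a log2 difference of -0.40 ± 0.12 (SE; limma adjusted p = 0.259). Cebpd, a transcription factor of the acute phase response, had means of 64.3 ± 6.5 (SD, n = 2) and 82 ± 7.97 (SD, n = 4) and a log2 difference of 0.34 (adjusted p = 0.392). Its relative Cebpb (-0.23, adjusted p = 0.523) and the third Pim kinase gene, Pim3 (-0.17, adjusted p = 0.61), had negative differences. Between the null lines 11 of the 13 targets were higher in line 1 than in line 2, with a median of 0.22, and 6 of the 13 did not overlap. Over all probe sets tested 48.8% were higher in line 1, with a median of -0.0064, and 39.1% did not overlap in either direction. Of the targets among the members, Pim2 was at -0.87, Socs3 at -0.15 and 0.051 and Pim1 at 0.12 and 0.18. Bcl3, which encodes a partner of NF-kappaB, had the largest difference of the 13 (0.72 ± 0.34, SE, limma adjusted p = 0.64). Tfcp2l1, a transcription factor that sustains self-renewal downstream of STAT3, was picked out, like Bcl3, after its values were seen. It measured 265.3 and 258.1 in wild-type cells, 295.4 and 300.4 in line 1, and 189.2 and 190.6 in line 2. Both arrays of line 1 were above wild type and both of line 2 below, the reverse of Pim2, and line 1 minus line 2 was 0.64 ± 0.12 (SE; limma adjusted p = 0.454; rank 22 by p).

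**Figure D3:**
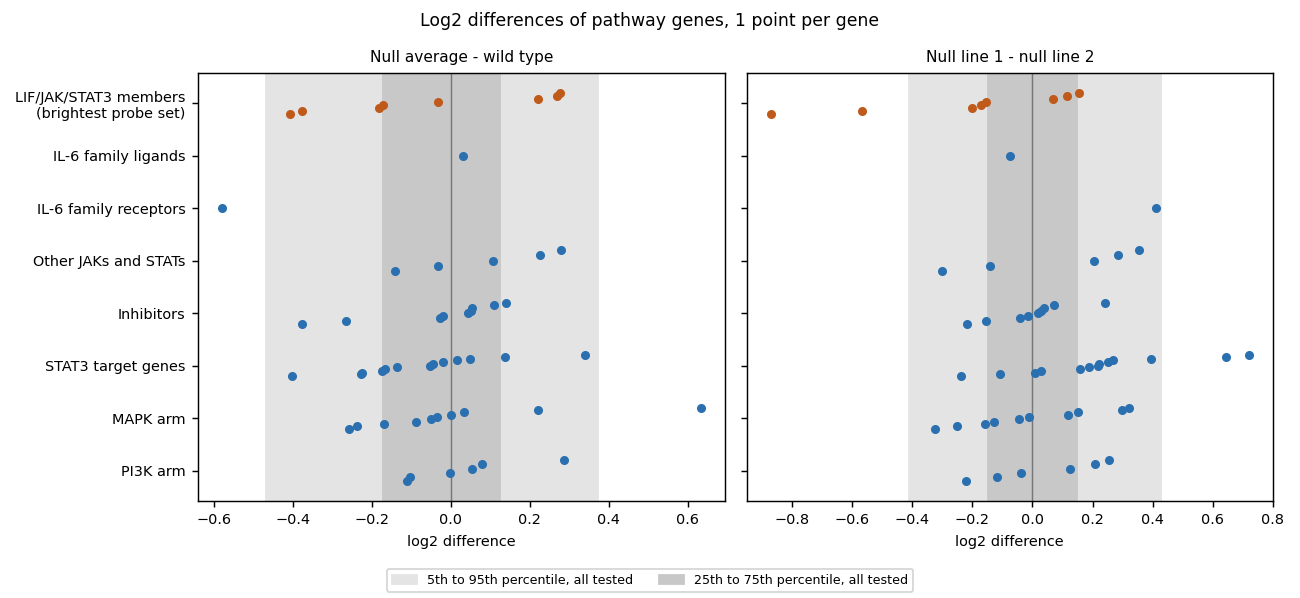
Log2 difference of each tested gene (1 point per gene, by its brightest probe set) for the members and the 7 pathway lists, in the null average against wild type and in null line 1 against null line 2; grey bands hold the middle 50% and 90% of all tested probe sets. Gab1 is the rightmost point on the left, at 0.63, and Pim2 the leftmost on the right, at -0.87.

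Of 9 inhibitors tested, which include the SOCS and PIAS proteins and tyrosine phosphatases, 5 were positive and 4 negative with a median of 0.044. Pias1, a SUMO ligase, had means of 48.2 and 36.5 (-0.38, limma adjusted p = 0.412). Cish (-0.27), Pias2 (0.11) and Pias3 (0.14) had adjusted p between 0.72 and 0.823, and 2 other Pias3 probe sets had the opposite sign (-0.10 and -0.081). A dimmer Pias2 probe set, 160912_i_at, measured 16 and 25 with wild-type RNA and 26.9 to 34.9 with null RNA (0.61, adjusted p = 0.291), which differs in size from the brighter one. Of 5 further JAK and STAT genes the median was 0.11, with Tyk2 at 0.28, Stat6 at 0.22, Jak3 at 0.11 and Stat4 at -0.14 (limma adjusted p between 0.626 and 0.845). Of 6 genes of the PI3K arm the median was 0.025, with Akt2 at 0.29, Gsk3a at -0.11, Akt1 at -0.10 and Pik3ca at 0.080 (limma adjusted p between 0.717 and 0.898), and a second Pik3ca probe set at -0.17. Of the ligands related to LIF, Ctf1 alone was tested (0.032, limma adjusted p = 0.962), and Il6 and Il11 were at background on every array. Of the receptors, Cntfr alone was tested (-0.58 ± 0.48, SE, limma adjusted p = 0.656).

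The summed signals of the extraembryonic endoderm and fibroblast marker lists lay lower on the null arrays, with most of each gap in a few genes. The summed signal of 14 extraembryonic endoderm markers came to 4658 and 4979 in wild-type cells and to 2816 to 3214 in null cells. Of the 11 tested, 9 had negative differences, and the keratin genes Krt8 and Krt18 made up most of the sum, the first averaging 1483 in wild-type against 909 in null cells and the second 1674 against 959. Col4a2, a basement membrane collagen, was the only one that passed in the null average, where it fell (-0.84, limma adjusted p = 0.0433). It did not pass in line 1 or in line 2 alone (limma adjusted p = 0.0772 and 0.0912). Col4a1 (-0.70), Sparc (-0.39) and Dab2 (-0.37) also had negative differences and did not pass. The endoderm factors Gata6 and Foxa2 were at or near background and did not fall. Gata6 averaged 11.4 on the wild-type arrays against 14.5 on the null arrays, and Foxa2 averaged 5.8 against 6.5. Gata4, which was brighter, averaged 123 against 106. The dim markers Sox17 (0.053) and Sox7 (0.094) had the 2 positive differences of the 11. Afp, also dim, was level (-0.0018), and the limma adjusted p of these 3 lay between 0.948 and 0.999. Foxa2 was at background on every array. The sum of 16 fibroblast markers came to 1463 and 1470 in wild-type cells and to 1188 to 1240 in null cells, of which Acta2, at 561 and 345, held most of the gap. Col1a1 and Col1a2, collagen genes on this list, averaged 158 and 219 in wild-type cells against 160 and 238 in the null lines. They were the only 2 of the 9 fibroblast markers tested with a positive difference. The other 7 were negative, among them Timp3, an inhibitor of matrix proteases (62.2 against 38.7; -0.66, limma adjusted p = 0.104), and none of the 9 passed. The sum of 13 embryonic stem cell markers came to 6107 and 6280 with wild-type RNA and to 6432 to 7077 with null RNA. Pou5f1, Nanog and Sox2 made up most of it. Of the 12 tested, 9 had positive differences and none passed (smallest limma adjusted p = 0.187). Dppa3 (0.69), Nr0b1 (0.41), Fgf4 (0.39) and Utf1 (0.38) were higher on all null arrays, as were 11% of all probe sets tested. The 3 negative differences were those of Tdgf1 (-0.38), Nanog (-0.094) and Sox2 (-0.042). Pim1, Jak1 and Bcl2l1 lay lower, and Socs3, Cebpd and Gab1 higher, on the same arrays, and the part of these markers in their differences was not tested. In such bulk RNA, fewer cells of a type and less RNA per cell cannot be told apart.

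**Figure D4:**
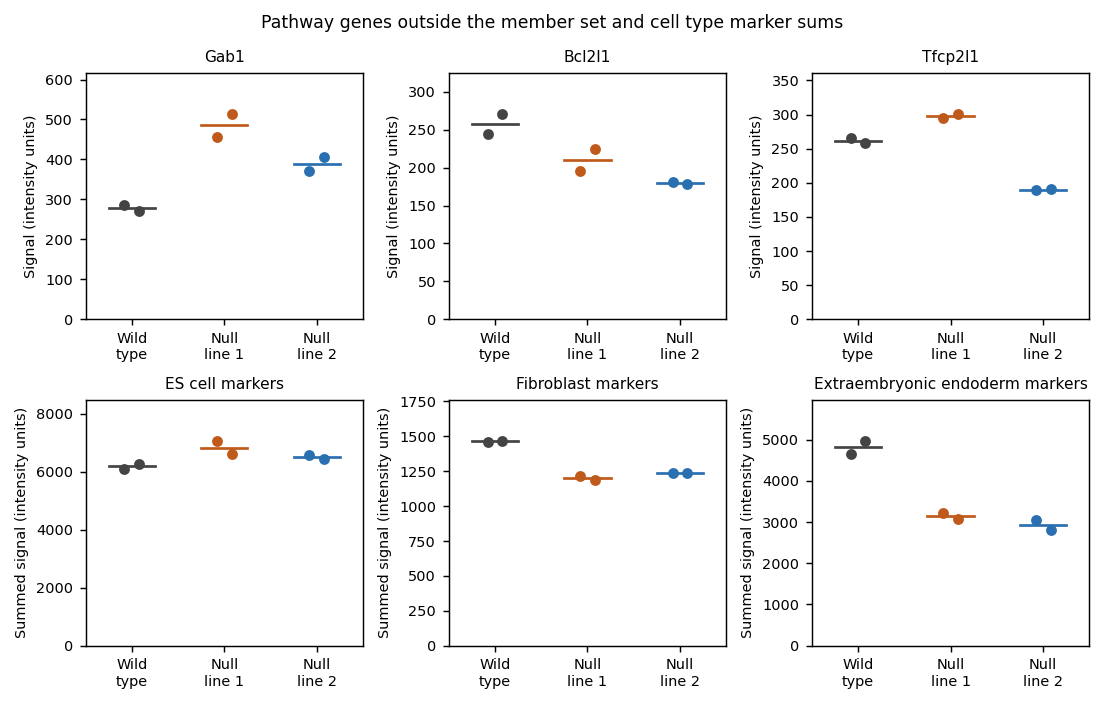
Signal in intensity units of Gab1, Bcl2l1 and Tfcp2l1 (top) and the summed signal of 13 embryonic stem cell, 16 fibroblast and 14 extraembryonic endoderm markers (bottom) on the 6 arrays; points are arrays and bars are means of 2 arrays. Gab1 is higher and Bcl2l1 lower on all null arrays, Tfcp2l1 splits the null lines around wild type, and the endoderm sum is 4658 and 4979 on the wild-type arrays and 3214 or less on the null arrays.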

How the data were processed

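Signals were deposited as array intensities on a linear scale, 1 per probe set and array, made by the authors with MAS5, per the submitters' processing notes (version not given in the sources used here). Their trimmed means, with 2% left out at each end, were 99.98 on every array and that scaling was kept. Symbols come from the platform annotation, updated through RefSeq gene IDs (10817 of 10833 probe sets with 1 gene matched); 396 probe sets list several genes and 1193 none. The 66 control probe sets were left out. The pseudocount of 2 is the 10th percentile of all values and the filter the 40th percentile of means. The model held all 6 arrays and a mean for each line, and ran in R 4.3.3 through limma 3.58.1 (lmFit, eBayes), with 3 residual and 3.17 prior degrees of freedom. By permutation, 2 arrays against 4 cannot give a p below 0.0667, two-sided, so every p rests on the model. The procedure was tested on simulated data, in 10 runs with 200 of 7453 probe sets changed. In the null average it recovered 73.6% of 2-fold and 97% of 4-fold changes, with 4.56% false among the calls. Recovery of smaller changes is not given. A gene stands in its list by its brightest probe set. All probe sets of the members are named, and of each other list every gene called, filled up to 4 by the smallest p in the null average. The members and lists were chosen with earlier results of these data known. Experiment numbers were checked as pairs: deviations of same-numbered arrays from their line means correlated at 0.053 to 0.095 over probe sets. These values were low and the main model did not pair the arrays, although no cutoff is given for this check. Calls with the numbers as pairs are given below. Figures were drawn with matplotlib 3.10.9.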

Additional observations from a re-analysis of the deposited data

Results flagged for a closer look

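Among the members and the pathway lists, the null lines lay on opposite sides of wild type for 5 genes, 2 of the 12 member probe sets and 3 of the 45 other genes, against 2.75% of all probe sets tested. Each was tested by line 1 minus line 2, and none passed with limma. The choice of these genes uses the same arrays and fixes the sign of that difference, so the test is not independent of it. The log2 differences were -0.87 for Pim2 (adjusted p = 0.454), -0.57 for Jak2 (0.618), 0.64 for Tfcp2l1 (0.454), 0.39 for Junb (0.627) and 0.24 for Ptpn2 (0.641). Junb and Ptpn2, an immediate early transcription factor and a tyrosine phosphatase, were picked out because of these values.

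Among the 4 null arrays of a probe set, 1 array stood apart for 5 of the 12 member probe sets, where the gap to the nearest array took up most of the range (past Dixon's 95% critical value). The share was 0.963 for Il6st (94345_at, array 2 of line 2 high), 0.862 for Stat3 (99099_at, array 2 of line 1 low), 0.865 for Socs3 (162206_f_at, array 2 of line 2 high), 0.931 for Pim1 (104533_at, array 2 of line 1 high) and 0.832 for Pim1 (99384_at, array 1 of line 2 low). Chance alone gives about 1 in 20 for 4 arrays of 1 group, but these 4 arrays come from 2 lines. The share over all probe sets tested was not computed, so the 5 are not shown to be particular to the members. In 4 of the 5 cases the array that stood apart was array 2 of its line.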

How the results depend on the processing

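The count of member probe sets called by limma stayed at 0 in all 4 comparisons under the 15 alternatives that apply to each, of 16 in all (pseudocount, filter, normalization, prior variance, arrays in the fit, replicate block, each array left out), leaving out each array included (0 to 0), with 1 exception. With a prior variance that follows the signal, 1 was called in null line 2 against wild type, Pim2 (0.70, adjusted p = 0.046, against 0.046 to 0.533 over the alternatives). With the replicate block, which treats the experiment numbers as pairs, 0 members were called, and the calls among all probe sets were 14, 10, 18 and 0 in the 4 comparisons, against 31, 10, 19 and 2. Over the alternatives the calls in the null average ranged from 7 to 101, those in line 1 from 4 to 42, those in line 2 from 0 to 92 and those between the lines from 0 to 2. Gab1 passed in 2 alternatives, with the stricter filter (adjusted p = 0.045) and with the signal-following prior variance (0.0224), and its adjusted p reached 0.57 elsewhere. Differences of both Pim1 probe sets kept their sign, at -0.64 to -0.41 and -0.47 to -0.29, as did Jak1 (-0.48 to -0.34) and Pim2 between the lines (-1.01 to -0.73). Of 48 member results 36 kept their sign throughout, and of 23 other pathway results 15 did.

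For the values that turned sign the cause was not tested. Leaving out each array in turn gave, against wild type in the null average, -0.11 to 0.040 for Il6st (98349_at) and -0.11 to 0.043 for Jak2. In line 1 against wild type it gave -0.21 to 0.087 for that Il6st probe set and -0.16 to 0.042 for Stat3 (99100_at). In line 2 it gave -0.25 to 0.077 for Il6st (94345_at), -0.051 to 0.039 for Il6st (98349_at), -0.13 to 0.50 for Lifr and -0.16 to 0.039 for Stat3 (99100_at). Between the lines it gave -0.20 to 0.092 for Il6st (98349_at), -0.25 to 0.38 for Lifr, -0.089 to 0.19 for Socs3 (92232_at) and -0.099 to 0.10 for Stat3 (99100_at). Among the other genes it gave, in the null average, -0.22 to 0.011 for Akt1, -0.12 to 0.69 for Akt2, -0.15 to 0.22 for Ctf1, -0.024 to 0.24 for Jak3, -0.12 to 0.40 for Pias3, -0.037 to 0.20 for Pik3ca, -0.30 to 0.012 for Stat4 and -0.092 to 0.65 for Tyk2. Quantile normalization turned Il6st (98349_at) to 0.043 in the null average, 0.030 in line 1 and 0.057 in line 2, Jak2 to 0.049 and Stat3 (99100_at) between the lines to -0.017. Median centring turned Il6st (98349_at) in line 2 to 0.027 and Stat3 (99100_at) between the lines to -0.018.

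A member that did not pass is not shown to be equal between the lines. Signals near the background controls, as for Jak2, Ptpn11 and most Lifr probe sets, limit what can be read. Phosphorylation of STAT3, the activity of the pathway itself, was not measured.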
